A study of Homo sapiens with 6 samples.

Results

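Genes that build the junctions, the apical-basal polarity and the identity of epithelial cells were followed in cells given MFAP5, a secreted glycoprotein of microfibrils. The cells were OVCA432, a human line established from a high grade serous carcinoma of the ovary. The set held 46 genes taken from a list by symbol. In the whole series 19775 genes had an array probe set carrying their symbol alone, 43 of the 46 among them. Cells of the MFAP5 group received 200 ng/mL of recombinant human MFAP5 protein, and cells of the control group received the same amount of solvent. Both groups had been without serum for 24 h, stayed in serum-free RPMI medium and were harvested 48 h after treatment, with 3 samples per group on 6 Affymetrix Human Genome U133 Plus 2.0 arrays. The series design calls the samples independent and does not say whether they were separate passages of the line, so p-values measure the spread between these samples, and the number of arrays limits the precision.

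Epithelial cells are joined by tight junctions, adherens junctions and desmosomes. Claudins seal the tight junction and set which ions pass between cells, E-cadherin (CDH1) and the nectins hold the adherens junction together, and desmosomal cadherins tie cells to the keratin network through plaque proteins. The PAR and Crumbs complexes place these junctions at the border of the apical membrane, while factors such as GRHL2, OVOL2 and ESRP1 keep the epithelial programme of transcription and splicing running. Carcinomas of the ovary usually keep E-cadherin and EPCAM, and claudins 3 and 4 are known for their high levels in them.

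Of the 46 genes, 43 had a probe set of their own, and the brightest one over the 6 arrays stood for each gene. CTNND1, F11R and ESRP2 had none and were not analysed here. DSC3, a desmosomal cadherin, lay below the brightness filter, with MAS5 signals of 21.3, 13.8 and 25.1 on MFAP5 arrays and 16.4, 27.2 and 16.1 on control arrays. None of these 6 values exceeded the brightest Bacillus control probe set of its array, which measures RNA that the cells do not make. The other 42 genes were tested, and each of them lay above that background on all 6 arrays. The epithelial label was borne out by its markers: all 10 epithelial and ovarian carcinoma markers (KRT7, KRT8, KRT18, KRT19, MUC1, MUC16, WFDC2, PAX8, SOX17 and MSLN) exceeded the background on all arrays. Of 9 fibroblast markers only COL1A1 and COL1A2 did so, as did 0 of 4 leukocyte and 0 of 5 endothelial markers measured. The summed signal of the fibroblast markers was 363 to 428 on MFAP5 arrays and 292 to 367 on control arrays, and their part in the results was not tested.

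Most of these genes changed little. Of the 42 tested, 9 were higher with MFAP5 (CLDN16, RAB25, PPL, CLDN3, CLDN1, NECTIN2, LSR, TJP1 and EPCAM), 2 were lower (CLDN10 and OVOL2) and 31 were not called (limma, adjusted p below 0.05 over all probe sets tested). The 11 called members are 26.2% of those tested, against 29.9% of the 12216 genes tested in the same way. Higher calls made up 21.4% of the members, against 14.6% of all genes, and lower calls 4.76%, against 15.3%. The median log2 difference, MFAP5 minus control, was 0.07 over the members and -0.01 over all genes. Among the called members only CLDN16 passed a 2-fold change. The arrays of the groups did not overlap for 18 members, 12 of them higher and 6 lower. Over all genes this held for 45.9%, with 22.3% higher and 23.6% lower. For 28 of the 31 genes not called the 95% interval of the difference stayed within 1.5-fold either way, the exceptions being PATJ, PARD6B and OVOL1. The count of lower members depended most on the processing. It was 4 without control replicate 3, and centring each array on the median of all its probe sets gave 6 higher and 10 lower members. The median log2 difference of the probe sets tested was then -0.12, where the values as deposited gave 0.02. CLDN16, RAB25, PPL, CLDN3, CLDN1 and CLDN10 kept their calls under all 16 alternatives tried. Of the 31 genes not called, 14 were called under at least 1 of these alternatives. In RNA from a whole culture, fewer cells expressing a gene and less RNA per cell cannot be told apart.

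**Figure D1:**
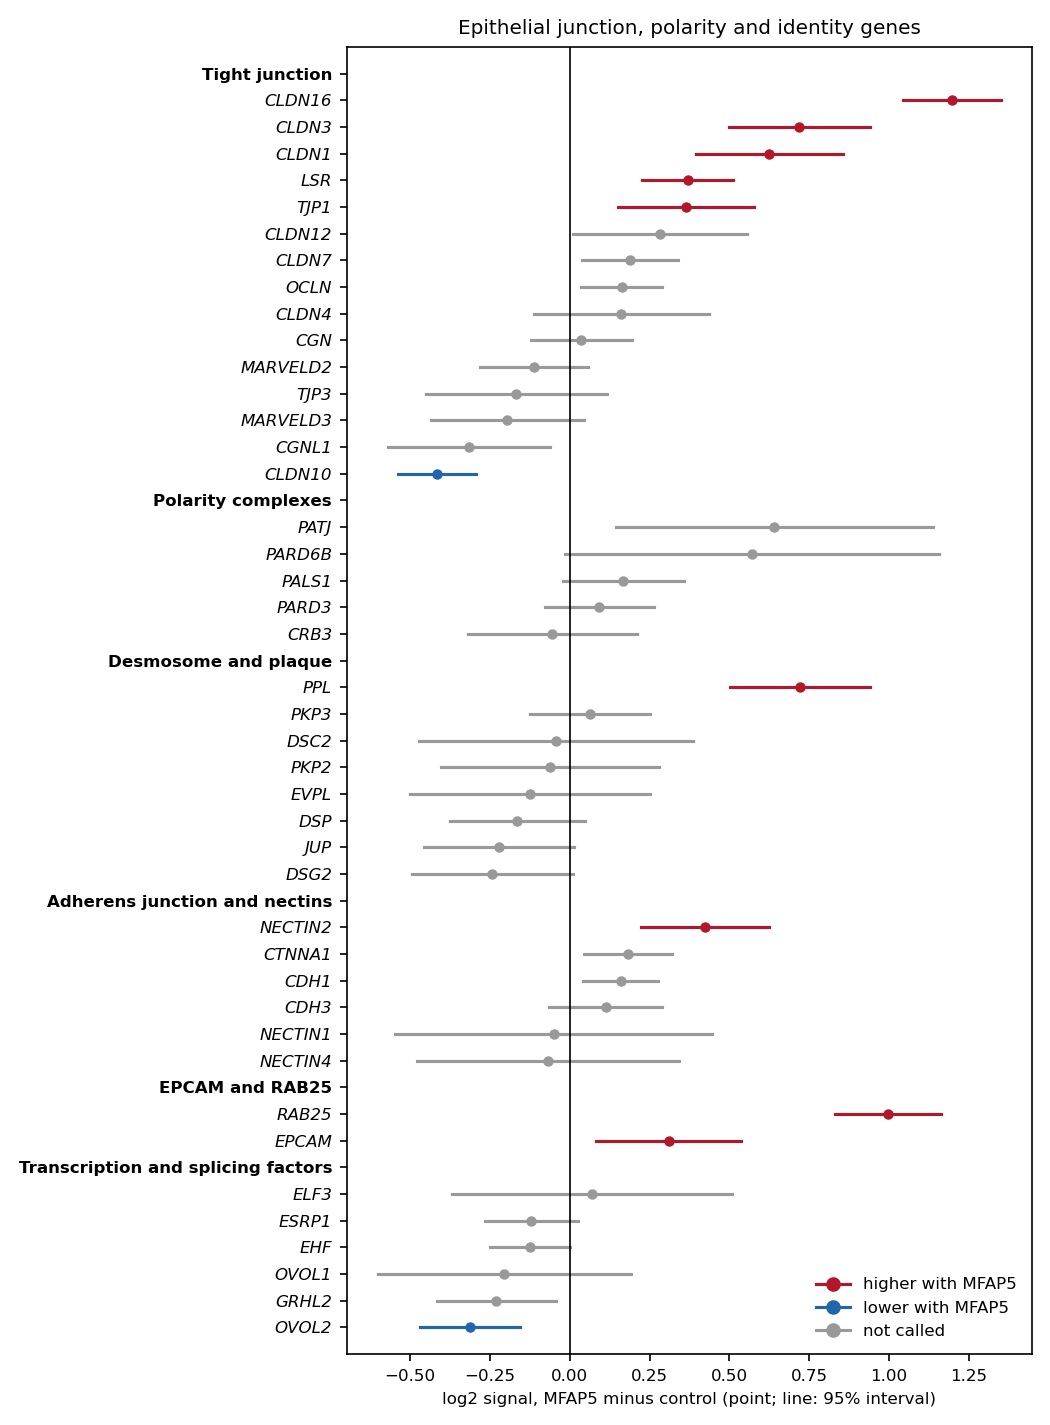
Difference in log2 signal, MFAP5 minus control, with its 95% interval for the 42 members tested, grouped by role (red, higher; blue, lower; grey, not called; n = 3 arrays per group). CLDN16 and RAB25 stand furthest to the right, at 1.20 and 0.997, and CLDN10 furthest to the left.

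**Figure D2:**
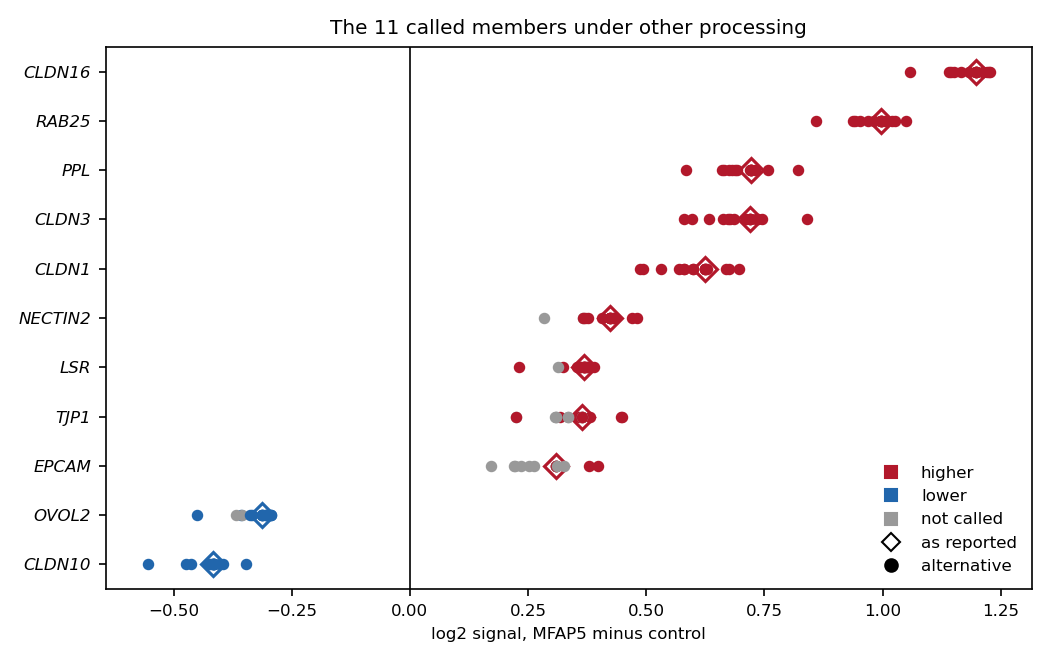
Log2 difference, MFAP5 minus control, of the 11 called members as reported (open diamond) and under each of 16 alternatives in processing (dots; red or blue, called; grey, not called). No alternative changes the sign of any of the 11, and EPCAM is grey most often.

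Of the 7 claudins tested, 3 rose (CLDN16, CLDN3 and CLDN1), 1 fell (CLDN10) and 3 were not called. Over all genes, 14.6% were higher and 15.3% lower. CLDN16, first known as the kidney claudin needed for magnesium uptake, had signals of 6367, 6797 and 6366 on MFAP5 arrays and 2957, 2933 and 2635 on control arrays. The groups lay far apart, and CLDN16 rose 2.29-fold (log2 difference 1.20 ± 0.07 SE, limma adjusted p = 2.39e-06). CLDN3, a sealing claudin, had 5758, 6186 and 4651 with MFAP5 and 3460, 3411 and 3145 in controls. It rose 1.65-fold without overlap between the groups (0.72 ± 0.10 SE, limma adjusted p = 0.000654), and its other probe set was also higher, by 1.39-fold. CLDN1, a barrier-forming claudin, had 1621, 1325 and 1337 with MFAP5 and 865, 889 and 1018 in controls. All its MFAP5 arrays were above all control arrays, a 1.54-fold rise (0.63 ± 0.10 SE, limma adjusted p = 0.00186). Its other probe set was not called, at 0.36 on the log2 scale.

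CLDN10, a claudin that forms ion pores, went the other way. Its signals were 7377, 7399 and 7077 on MFAP5 arrays and 9749, 9658 and 9748 on control arrays. The groups did not overlap, and CLDN10 was 1.33-fold lower with MFAP5 (-0.42 ± 0.06 SE, limma adjusted p = 0.000517), with a dimmer probe set not called at -0.28. CLDN4, a partner of CLDN3 in sealing, had 673, 693 and 824 with MFAP5 and 755, 615 and 591 in controls, which overlap (log2 difference 0.16, limma adjusted p = 0.373). CLDN7, which binds EPCAM, averaged 10629 ± 742 with MFAP5 and 9310 ± 317 in controls (SD, n = 3 each, limma adjusted p = 0.065). Its arrays did not overlap, and it was called without MFAP5 replicate 3 (adjusted p = 0.0468). CLDN12 was not called, at 0.28 with overlapping groups.

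RefSeq promoters (GRCh38.p14, 250 bases before to 50 after a gene start) are given for CLDN16, RAB25 and CLDN3, the called members with the largest rises among those with an entry in the promoter table, together with CRB3, a polarity gene whose window held the most E-boxes along with that of CLDN7. Capitals mark E-boxes and AP-1-type letters. E-boxes are CACCTG or the reverse complement CAGGTG, which are known as the element read by the SNAI and ZEB repressors. AP-1-type letters are TGANTCA on either strand, a loose pattern in which N is any base. The 2 CLDN16 windows lie at chr3:190290111-190290410 (+ strand) and chr3:190387913-190388212 (+ strand), that of CLDN3 at chr7:73770221-73770520 (- strand), that of RAB25 at chr1:156060910-156061209 (+ strand) and that of CRB3 at chr19:6464021-6464320 (+ strand).
CLDN16, upstream start: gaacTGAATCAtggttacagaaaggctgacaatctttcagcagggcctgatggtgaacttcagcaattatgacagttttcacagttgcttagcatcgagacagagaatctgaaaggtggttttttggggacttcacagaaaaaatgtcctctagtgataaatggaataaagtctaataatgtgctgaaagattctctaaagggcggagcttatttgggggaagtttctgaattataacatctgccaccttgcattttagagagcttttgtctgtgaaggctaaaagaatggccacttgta
CLDN16, downstream start: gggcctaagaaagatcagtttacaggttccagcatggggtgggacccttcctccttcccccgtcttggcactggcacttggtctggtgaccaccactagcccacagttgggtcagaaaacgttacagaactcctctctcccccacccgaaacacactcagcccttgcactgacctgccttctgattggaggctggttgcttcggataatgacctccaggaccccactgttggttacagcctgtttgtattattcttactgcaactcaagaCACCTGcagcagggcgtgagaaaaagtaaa
CLDN3: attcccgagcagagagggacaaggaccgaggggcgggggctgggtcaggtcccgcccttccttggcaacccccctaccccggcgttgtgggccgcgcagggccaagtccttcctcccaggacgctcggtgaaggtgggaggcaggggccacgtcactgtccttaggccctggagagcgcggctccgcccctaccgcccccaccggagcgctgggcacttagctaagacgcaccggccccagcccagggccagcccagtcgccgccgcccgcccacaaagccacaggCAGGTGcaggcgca
RAB25: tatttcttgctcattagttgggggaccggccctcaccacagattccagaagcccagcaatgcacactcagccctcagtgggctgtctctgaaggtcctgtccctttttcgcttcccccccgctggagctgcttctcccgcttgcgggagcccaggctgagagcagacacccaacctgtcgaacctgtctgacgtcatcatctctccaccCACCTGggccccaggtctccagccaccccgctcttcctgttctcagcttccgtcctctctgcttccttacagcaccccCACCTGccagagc
CRB3: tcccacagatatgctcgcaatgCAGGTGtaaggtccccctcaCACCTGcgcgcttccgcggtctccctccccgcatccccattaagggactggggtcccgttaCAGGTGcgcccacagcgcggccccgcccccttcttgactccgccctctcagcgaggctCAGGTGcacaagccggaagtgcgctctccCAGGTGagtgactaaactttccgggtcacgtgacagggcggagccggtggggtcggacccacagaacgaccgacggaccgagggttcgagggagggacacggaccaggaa

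The RAB25 window held 2 E-boxes, beginning at -41 and 38 from the gene start, that of CLDN3 held 1 at 37, and the downstream CLDN16 window held 1 at 21. The upstream CLDN16 window held AP-1-type letters, TGAATCA, at -246 instead. The 5 E-boxes of CRB3 began at -228, -208, -147, -89 and -60. Promoters were listed for 28 members, with 42 windows in all. E-boxes occurred in 16 of these windows (38.1%) and in 20.6% of the 35116 promoter windows of the table. AP-1-type letters occurred in 2 (4.76%), against 7.71%. The GRHL-type letters AACCNGTT, searched on both strands, occurred in 1 window, that of CGN (2.38%, against 1.73% of all). No matches of the 3 motifs overlapped. By gene, 15 of the 28 members had an E-box, and so had 4 of the 8 called members with a listed promoter. These matches are letters in a window, and no binding was measured.

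Of the other transmembrane proteins of the tight junction, LSR rose, and OCLN, MARVELD2 and MARVELD3 were not called. LSR, also called angulin-1, which marks the corners where 3 cells meet, had 2311, 2356 and 2323 on MFAP5 arrays and 1829, 1819 and 1764 on control arrays. The arrays of each group lay close together, and LSR rose 1.29-fold (0.37 ± 0.06 SE, limma adjusted p = 0.00235), a call lost only when arrays were centred on hybridisation controls (adjusted p = 0.17). Occludin (OCLN) averaged 9013 ± 204 with MFAP5 and 8050 ± 231 in controls (SD, n = 3 each). Its groups did not overlap, yet the 1.12-fold difference was not called (limma adjusted p = 0.0614), and its 3 other probe sets gave log2 differences of 0.09 to 0.25. MARVELD2 (tricellulin), which LSR recruits to tricellular corners, had 3661, 3563 and 3778 with MFAP5 and 3734, 3783 and 4403 in controls. MARVELD3 had 555, 563 and 472 with MFAP5 and 598, 644 and 575 in controls. Neither was called, at -0.11 and -0.20 on the log2 scale, although one of the 2 further MARVELD3 probe sets was lower (-0.59, limma adjusted p = 0.00308). MARVELD3 was called lower with centring on array medians and with the mean of its probe sets.

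Among the cytoplasmic scaffolds of the tight junction, TJP1 was called. TJP1 encodes ZO-1, which links claudins and occludin to actin, and had 3291, 3858 and 3992 on MFAP5 arrays and 2669, 2765 and 3226 on control arrays. Its groups were separated by a narrow gap and it rose 1.29-fold (0.36 ± 0.10 SE, limma adjusted p = 0.0194). The call ended without MFAP5 replicate 2 (adjusted p = 0.0789), MFAP5 replicate 3 (0.0711), control replicate 1 (0.0751) or control replicate 2 (0.0679). It also ended with centring on array medians (adjusted p = 0.126) or on hybridisation controls (0.175) and with no intensity trend (0.0823). The other TJP1 probe set was not called, at 0.09 on the log2 scale. TJP3 (ZO-3) had 294, 321 and 272 with MFAP5 and 341, 309 and 346 in controls, with overlap. Paracingulin (CGNL1) had 591, 548 and 462 with MFAP5 and 642, 638 and 705 in controls. It was lower on every MFAP5 array than on any control array without being called (-0.32, limma adjusted p = 0.07). CGNL1 was called in 3 of the 16 alternatives. These were leaving out MFAP5 replicate 1 (adjusted p = 0.0434) and centring on array medians or on medians of the probe sets tested. Cingulin (CGN) lay at 0.04 on its brightest probe set, while the other was lower (-0.20, limma adjusted p = 0.0461). Of the 15 tight junction genes tested, 5 rose (33.3%), 1 fell (6.67%) and 9 were not called, against 14.6% of all genes higher and 15.3% lower. Their median log2 difference was 0.16, and 0.02 after centring on array medians.

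**Figure D3:**
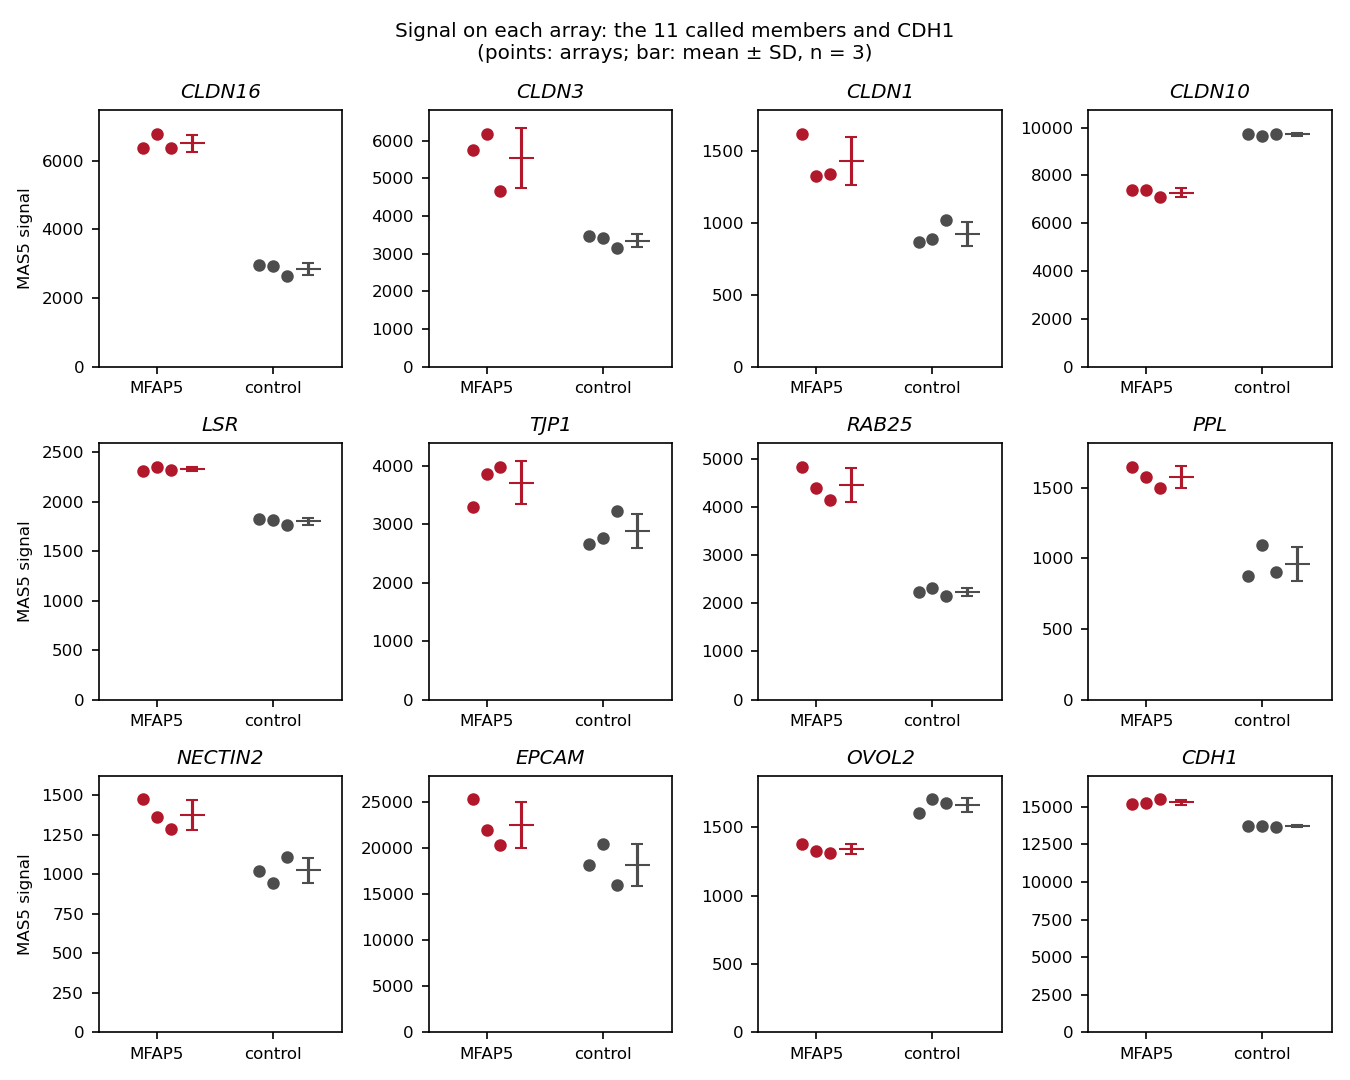
MAS5 signal on each array for the 11 called members and CDH1 (points, arrays; bar, mean ± SD, n = 3 per group; MFAP5 red, control dark grey; each panel has its own axis from 0). The groups are separated in every panel but that of EPCAM, whose lowest MFAP5 value, 20298, lies below its highest control value, 20424.

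None of the 5 polarity genes was called by limma, against 29.9% of all genes, and 1 of them, PATJ, had an unadjusted p below 0.05. PATJ, a multi-PDZ scaffold of the Crumbs complex, had signals of 423, 771 and 660 on MFAP5 arrays and 337, 338 and 499 on control arrays. MFAP5 replicate 1 lay below control replicate 3, so that the groups overlapped. The log2 difference of 0.64 ± 0.22 SE was not called (limma adjusted p = 0.0604). It was called without MFAP5 replicate 1 (adjusted p = 0.00835), without control replicate 3 (0.0243), with centring on hybridisation controls and with replicate number as a block. PARD6B, an adaptor that binds CDC42 and atypical protein kinase C, had 122, 217 and 241 with MFAP5 and 110, 118 and 150 in controls. Here too MFAP5 replicate 1 lay below control replicate 3 (0.57 ± 0.26 SE, limma adjusted p = 0.144, and 0.0172 without MFAP5 replicate 1). A second PARD6B probe set was higher by 1.54-fold (limma adjusted p = 0.0371), and PARD6B was called with the mean of its probe sets. CRB3, the transmembrane organiser of the complex, had 649, 510 and 505 with MFAP5 and 553, 589 and 575 in controls, a log2 difference of -0.06. PARD3 and PALS1, scaffolds of the PAR and Crumbs complexes, lay at 0.09 and 0.17 with overlapping groups.

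Of the 8 desmosomal genes tested, 1 rose (12.5%, against 14.6% of all genes), none fell (against 15.3%) and 7 were not called. PPL encodes periplakin, a plakin that connects the desmosomal plaque and the cornified envelope to intermediate filaments. It had 1651, 1579 and 1496 on MFAP5 arrays and 878, 1096 and 904 on control arrays. The groups were well apart and PPL rose 1.65-fold (0.72 ± 0.10 SE, limma adjusted p = 0.000591). Its partner envoplakin (EVPL) averaged 191 ± 33 with MFAP5 and 206 ± 11 in controls (SD, n = 3 each) and was not called (limma adjusted p = 0.635); whether the 2 plakins differ in their change was not tested. Plakophilin 3 (PKP3), a plaque protein, had 1504, 1456 and 1327 with MFAP5 and 1465, 1357 and 1280 in controls, with overlap. The cadherins DSG2 and DSC2, the plaque proteins PKP2 and JUP and the linker desmoplakin (DSP) had log2 differences between -0.24 and -0.04, each with overlapping groups. DSG2 was the most negative, with 2300, 2446 and 2098 on MFAP5 arrays and 3162, 2724 and 2270 on control arrays. It was called without control replicate 3 (adjusted p = 0.0192), with centring on array medians and with replicate number as a block. DSP was also called lower with centring on array medians and with the block, and JUP with centring on array medians. The median over the 8 genes was -0.09 on the log2 scale, and -0.23 after centring on array medians.

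Of the 6 adherens junction genes tested, 1 rose (16.7%, against 14.6% of all genes) and none fell (against 15.3%). The other 5, E-cadherin among them, were not called. CDH1 had 15189, 15232 and 15495 on MFAP5 arrays and 13755, 13743 and 13630 on control arrays. The arrays of each group were close and did not overlap, but the 1.12-fold difference just missed the threshold (0.16 ± 0.05 SE, 95% interval 0.04 to 0.28, limma adjusted p = 0.0529). It was called in 3 of the 16 alternatives: without control replicate 3 (adjusted p = 0.0313), with quantile normalization between arrays and with only probe sets above the 75% quantile. After centring on array medians the difference was 0.02. CTNNA1, the alpha-catenin that couples cadherins to actin, averaged 15130 ± 527 with MFAP5 and 13344 ± 684 in controls (SD, n = 3 each, limma adjusted p = 0.0562). One of its 4 further probe sets was higher (0.22, limma adjusted p = 0.0352). CTNNA1 was called in 4 of the 16 alternatives. These were quantile normalization, only probe sets above the 75% quantile, the mean of its probe sets, and replicate number as a block. P-cadherin (CDH3) was not called, at 0.11 with overlap.

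NECTIN2, an immunoglobulin-type adhesion protein that binds afadin, was the called member of the adherens junction group. It had 1472, 1359 and 1283 on MFAP5 arrays and 1021, 943 and 1106 on control arrays. It rose 1.34-fold without overlap (0.42 ± 0.09 SE, limma adjusted p = 0.00715), and 1 of its 3 further probe sets was also higher, by 1.64-fold. The call ended with centring on array medians (adjusted p = 0.0521) or on hybridisation controls (0.14). NECTIN1 had 190, 138 and 188 with MFAP5 and 231, 173 and 138 in controls. NECTIN4, the target of an antibody-drug conjugate in bladder cancer, had 126, 145 and 146 with MFAP5 and 140, 130 and 169 in controls. Both overlapped, at -0.05 and -0.07 on the log2 scale.

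EPCAM and RAB25 stand outside the junction complexes. RAB25, a RAB11-type GTPase that returns vesicles to the apical surface and is often gained in ovarian cancer, had 4835, 4392 and 4132 on MFAP5 arrays and 2228, 2315 and 2138 on control arrays. Its lowest MFAP5 array was well above its highest control array, and it rose 1.996-fold (0.997 ± 0.07 SE, limma adjusted p = 1.3e-05). EPCAM, the epithelial adhesion molecule used to detect carcinoma cells, had 25241, 21873 and 20298 with MFAP5 and 18093, 20424 and 15942 in controls. The groups overlapped, and the 1.24-fold rise was called by a narrow margin (0.31 ± 0.10 SE, limma adjusted p = 0.0489). Its call ended in 11 of the 16 alternatives, among them leaving out MFAP5 replicate 1 (adjusted p = 0.152), MFAP5 replicate 2 (0.107), control replicate 1 (0.111) or control replicate 3 (0.102).

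Among the transcription and splicing factors, 1 of 6 fell (16.7%, against 15.3% of all genes), none rose (against 14.6%) and 5 were not called. OVOL2, a zinc finger repressor that holds down ZEB1, had 1380, 1328 and 1311 on MFAP5 arrays and 1605, 1704 and 1681 on control arrays. It was 1.24-fold lower without overlap (-0.31 ± 0.07 SE, limma adjusted p = 0.00964). The call ended with centring on hybridisation controls (adjusted p = 0.117) and with the mean of its probe sets (0.128). The second OVOL2 probe set was dim and not called. GRHL2, which activates CDH1 and claudin genes, had 2681, 3018 and 3123 with MFAP5 and 3145, 3702 and 3499 in controls. Every MFAP5 array was below every control array, but the difference was not called (-0.23 ± 0.08 SE, limma adjusted p = 0.0721). It was called in 4 of the 16 alternatives. These were leaving out control replicate 1 (adjusted p = 0.0476), centring on array medians or on medians of the probe sets tested, and replicate number as a block. OVOL1 averaged 194 ± 29 with MFAP5 and 224 ± 34 in controls (SD, n = 3 each), with overlap. ELF3, an epithelial ETS factor, had 462, 270 and 284 with MFAP5 and 340, 287 and 314 in controls and was the single factor with a positive difference (0.07), which became -0.07 with centring on array medians.

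The brightest probe set gave a different picture from the others for EHF and ESRP1. EHF, an ETS factor of epithelia, had 16735, 18029 and 17202 on MFAP5 arrays and 18833, 18849 and 18918 on control arrays by its brightest probe set. The groups did not overlap, and the small difference was not called (-0.12, limma adjusted p = 0.139). Of its 5 further probe sets past the filter 4 were lower, at -0.93, -0.56, -0.43 and -0.36. The one with the largest difference had 1251, 1188 and 1066 with MFAP5 and 2288, 2317 and 2076 in controls, 1.91-fold lower (limma adjusted p = 4.67e-05). ESRP1, which directs epithelial splicing, had 15013, 15190 and 15078 with MFAP5 and 16898, 17313 and 15092 in controls by its brightest probe set. That was not called (-0.12, limma adjusted p = 0.211, and 0.016 without control replicate 3). Its second probe set, with 7463, 6162 and 5952 with MFAP5 and 9473, 9523 and 9206 in controls, was 1.45-fold lower (limma adjusted p = 0.00137). With the mean of all probe sets both genes were lower (-0.49 for EHF and -0.33 for ESRP1, limma adjusted p = 0.00206 and 0.0052). By the brightest probe set, both were also called lower with centring on array medians. EHF was so too with quantile normalization and with centring on medians of the probe sets tested.

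Over all members, 86 of 97 probe sets passed the brightness filter, of which 13 were higher and 9 lower. Of all probe sets tested, 13.5% were higher and 11.8% lower, 25.2% in either direction. Lower calls were thus near the share of all probe sets, unlike by gene (4.76%, against 15.3%), and 4 of the 9 were of EHF. Of the 11 called members 6 had another probe set past the filter, 2 (CLDN3 and NECTIN2) had one called the same way and 0 had one called the opposite way. Besides EHF and ESRP1, the genes with another probe set called but not their brightest were MARVELD3 and CGN, with a lower one, and CTNNA1 and PARD6B, with a higher one. These 6 were picked out after their values were seen.

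**Figure D4:**
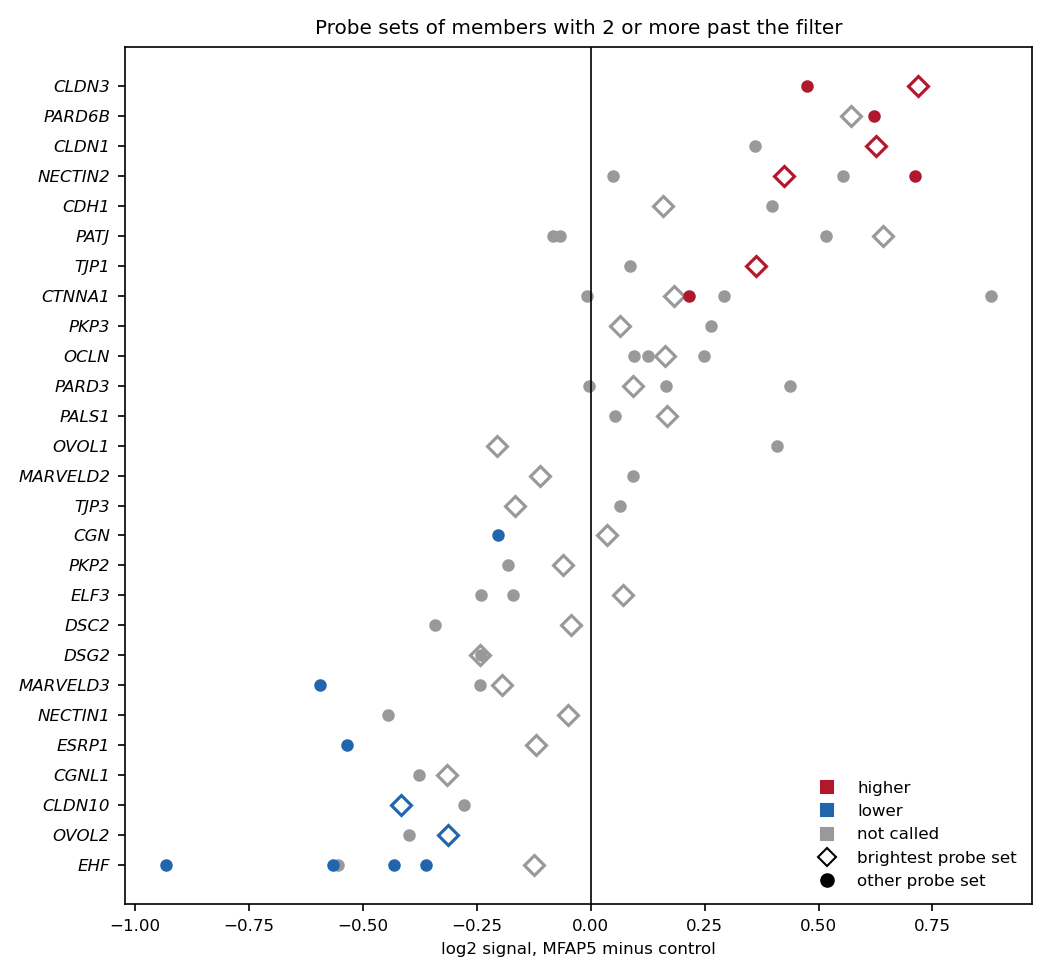
Log2 difference, MFAP5 minus control, of every probe set past the filter for members with 2 or more (open diamond, the brightest, which stands for the gene; dot, another; red, higher; blue, lower; grey, not called). The further probe sets of EHF reach -0.93, while its brightest one lies at -0.12.

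Other genes of the same structures were taken from lists, to be set against 14.6% of all genes higher and 15.3% lower. Of 14 further tight junction genes tested, 3 rose (21.4%), 1 fell (7.14%) and 10 were not called. AMOTL2, an angiomotin that links junctions to YAP, rose 1.87-fold, the multi-PDZ scaffold MPDZ 1.34-fold and the virus receptor CXADR 1.32-fold, while MAGI3 fell by 0.36 on the log2 scale (limma adjusted p = 2.82e-05, 0.0133, 0.000586 and 0.0368). Of 12 further adherens junction and desmosome genes, 4 rose (33.3%) and none fell. They were cadherin 6 (CDH6, 1.69-fold, with 8213 ± 193 on MFAP5 arrays and 4849 ± 154 on control arrays, SD, n = 3 each), the claudin-like TMEM47 (1.44-fold), vinculin (VCL, 1.23-fold) and afadin (AFDN, 1.18-fold), the partner of the nectins. Of 21 further polarity genes, PARD3B rose 2.23-fold (1056 ± 111 with MFAP5, 472 ± 32 in controls, SD, n = 3 each, limma adjusted p = 5.27e-05). SCRIB, LIN7C and PALS2, members of the Scribble and Crumbs complexes, fell by 0.48, 0.40 and 0.33 on the log2 scale, and 17 were not called. Higher calls made up 4.76% of these 21 genes and lower calls 14.3%.

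Of 22 further genes of epithelial identity, 9 rose (40.9%), 1 fell (4.55%) and 12 were not called, against 14.6% of all genes higher and 15.3% lower. FOXA2, a forkhead factor of endoderm and gland epithelium, was 5.81-fold higher (307 ± 21 with MFAP5, 52.9 ± 4.5 in controls, SD, n = 3 each, limma adjusted p = 9.77e-06). Only 2 of its 3 control values exceeded the Bacillus background. Its mean log2 signal was 8.26 with MFAP5 and 5.72 in controls, the latter below the filter of 5.75. FOXA2 thus passed the filter only through its MFAP5 arrays. Its p-value carries that selection, and its fold rests on control values near background. PAX8, the lineage factor of Mullerian epithelium, rose 1.45-fold, the protease inhibitor SPINT1 1.40-fold and TMC4 1.37-fold. The single gene that fell was TFAP2A (-0.39, limma adjusted p = 0.00355), named after its value was seen. Most of the classic repressors of the epithelial programme were dim. Of 14 genes on that list, 10 were below the filter, among them SNAI1, SNAI2, ZEB1 and ZEB2, named for their known role outside the rule for naming genes. ZEB1 had 3.80, 14.5 and 17.8 with MFAP5 and 27.0, 8.05 and 2.62 in controls, all below the brightest Bacillus control of their array. The other 4 were tested and were not all dim. TCF3 averaged 2134 with MFAP5 and 2060 in controls, TCF4 833 and 742, TWIST2 213 and 258, and TWIST1 45.6 and 70.9. Of these 4, 0 were called by limma, against 29.9% of all genes, and 0 had an unadjusted p below 0.05.

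**Figure D5:**
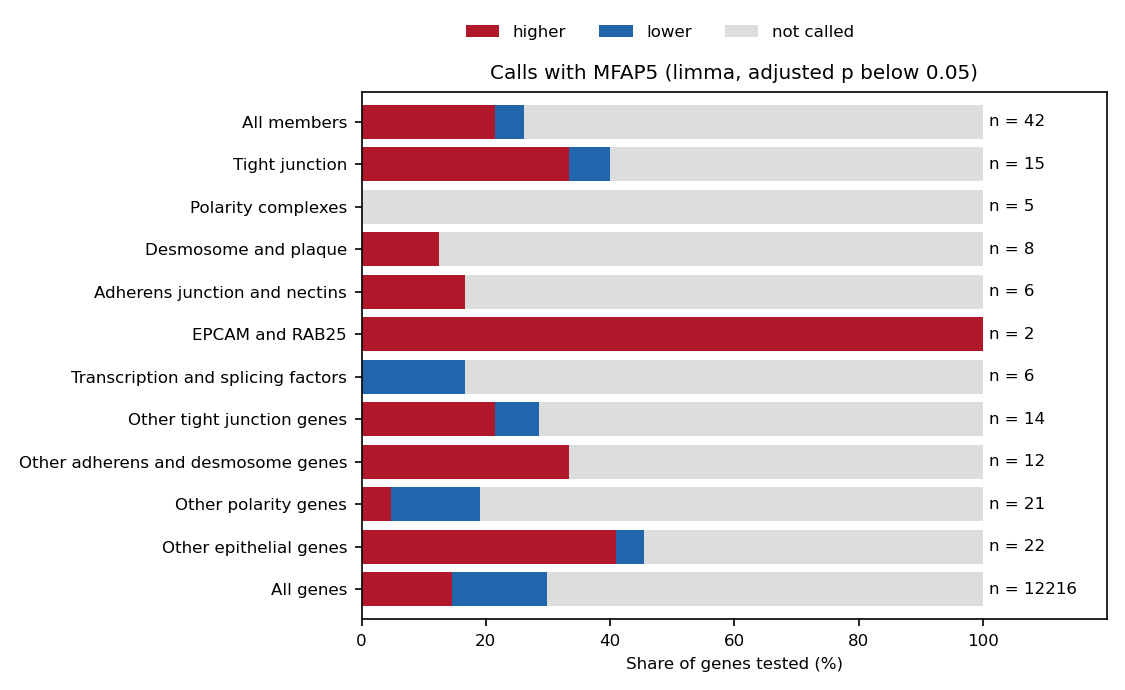
Share of the genes tested that were higher (red), lower (blue) or not called (grey) with MFAP5, for the members, their groups by role, the further gene lists and all genes, with the number tested at the right. The members and all genes have similar shares called, 26.2% and 29.9%.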

How the data were processed

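The authors deposited 1 linear intensity per probe set and array, a MAS5 signal per the submitters' processing notes, where no version is given. All 6 arrays had the same trimmed mean, so each had been scaled before deposit, and no further scaling was applied. Signals were taken to log2. Probe sets with a mean below the median (a signal of 53.7) and 62 control probe sets were left out, leaving 27307. The test of MFAP5 against control arrays used limma (version 3.58.1, under R 4.3.3), with lmFit and a trended eBayes. It was two-sided, and p-values were adjusted by Benjamini and Hochberg's method over those 27307, with 0.05 as the threshold. The fit was checked on simulated data. Symbols came from the platform annotation, a gene's brightest probe set stood for it, and 0 per-sample columns were left unused. Values on each array were given for CDH1, EPCAM, called members and members going against most of their group, and for others picked out after their values were seen. From each further list, up to 4 called genes with the largest change were named. Members, lists and motifs were chosen with earlier results of these data known. The brightest of 27 Bacillus control probe sets (26.4 to 55.9) was taken as background. On probe sets tested, arrays correlated at 0.984 to 0.988 within and 0.967 to 0.971 between groups. Coordinates are those of the RefSeq promoter table. Detection calls and scan dates were not used here.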

Additional observations from a re-analysis of the deposited data

How the results depend on the processing

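Over 16 alternatives, one of them (centring on the median of the probe sets tested) chosen after seeing the data, 580 of the single-gene values kept direction and side of the threshold, 23 lost a call, 41 gained one and 20, all of genes not called, changed sign. The probe sets tested gave 3679 higher and 3209 lower. Centring gave 2302 and 5975 on array medians and 1920 and 2011 on hybridisation controls. The mean of a gene's probe sets, where fewer features are tested, gave 2319 and 2026. Above the 75% quantile, 2421 were higher. Members lower numbered 2, against 10, 5 and 1 with centring on array medians, on medians of the probe sets tested and on hybridisation controls, and 4 with the mean of probe sets. Leaving out 1 array gave 2532 to 3557 probe sets higher, 2118 to 3117 lower (lowest without MFAP5 replicate 2), 7 to 10 members higher and 2 to 4 lower (highest without control replicate 3). Signs changed with centring on array medians for CDH3 (-0.0265), CGN (-0.10), ELF3 (-0.0681), PARD3 (-0.0460) and PKP3 (-0.0750), for CGN on the medians of the probe sets tested (-0.00951) and on hybridisation controls (-0.0200), and with the mean of probe sets for CGN (-0.0830), ELF3 (-0.11) and OVOL1 (0.10). Leaving out 1 array, the log2 difference ranged over both signs for CRB3 (-0.17 to 0.00790), DSC2 (-0.24 to 0.18), ELF3 (-0.17 to 0.21), NECTIN1 (-0.23 to 0.14), NECTIN4 (-0.15 to 0.0417) and PKP2 (-0.21 to 0.0761). The cause was not tested. Deviations of same-numbered samples correlated at 0.09, -0.01 and 0.17, and those of differently numbered samples at -0.18 to 0.10. Whether same-numbered samples were paired was not tested. With the replicate block, 4214 probe sets were higher and 3774 lower, and 12 members higher and 5 lower. The number of arrays and, for dim probe sets, the signal over background limit the precision.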

Other observations

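Several of these genes are neighbours on a chromosome, with no protein-coding gene between them when genes of the RefSeq table are ordered by start. CLDN16 and CLDN1 on chromosome 3 both rose with MFAP5, 2.29-fold and 1.54-fold. The CLDN1 promoter window (chr3:190322397-190322696, - strand) lies between the 2 CLDN16 windows, which are on the + strand. CLDN3 and CLDN4 on chromosome 7 had log2 differences of 0.72 and 0.16, of which only the first was called, and the difference between them was not tested. CDH3 and CDH1 on chromosome 16 lay at 0.11 and 0.16, and MARVELD2 and OCLN on chromosome 5 at -0.11 and 0.16, none of them called.

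Genes that mark mesenchymal cells and regulators of epithelial splicing gave further values. Of 20 mesenchymal markers 7 were tested, of which 3 rose (42.9%) and none fell, against 14.6% of all genes higher and 15.3% lower. They were vimentin (VIM, 203 ± 23 with MFAP5, 88.5 ± 6.0 in controls, SD, n = 3 each, limma adjusted p = 0.00116), S100A4 and TAGLN. The summed signal of the 20 markers was 28667 to 31099 on MFAP5 arrays and 13768 to 15333 on control arrays, of which S100A4 alone made up 25709 ± 990 and 11695 ± 789 (SD, n = 3 each). Of 9 splicing regulators and spliced targets, HNRNPM and SRSF1 fell by 0.57 and 0.27 on the log2 scale (limma adjusted p = 0.000938 and 0.00618) and 7 were not called. The share called was 22.2%, against 29.9% of all genes.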
